A study of Caenorhabditis elegans with 4 samples.

Results

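The DNA-binding protein LAG-1 was mapped by ChIP-seq (chromatin immunoprecipitation followed by sequencing) in whole animals of the nematode Caenorhabditis elegans, Bristol strain, at the L4 larval stage. The regions described here are the peaks that lay where the local background, set by the input DNA, was more than 3 times the mean over the genome. There were 831 such peaks among the 2121 in the 3 deposited lists, and merging those that overlapped gave 363 regions. The peaks that remained, 1290 in number, merged into 974 low-background regions and serve as the comparison. Each list came from 1 immunoprecipitation (IP) library set against the same input library. FLAG 1 was precipitated with an antibody to FLAG, and GFP 2 and GFP 3 with an antibody to GFP, under the numbers the labels give them. The input was not immunoprecipitated, and the design text counts the 3 IPs as biological replicates. All 4 libraries share the strain, stage and source given above, and the labels used here do not name a tagged allele or transgene.

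LAG-1 is the worm member of the CSL family, the DNA-binding proteins through which Notch receptors act on their target genes. In worms, Notch signalling is known for keeping germline stem cells from differentiating and for several decisions of cell fate. Peaks in high background are a known feature of ChIP-seq. Sequence that is present in many copies, or that is missing from the assembly in some of its copies, gathers reads in input and IP alike, and callers then work close to the limit of what the library can show. As further background, worm chromosomes end in short telomeric repeats, their arms hold more repeated DNA than their centres, the large ribosomal RNA genes form a tandem array at the right end of chromosome I, and the genes of the smallest ribosomal RNA form one on chromosome V. No genome or annotation of ce10, the build of the files, was used here. Whether the regions are repeated sequence, and which genes lie in them, was therefore not tested, and they are called raised-background regions after the rule that chose them.

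The local background was recovered from 2 deposited columns, as the pileup plus 1 divided by the fold enrichment, minus 1. The pileup is the number of tags over a peak's highest summit after the caller extended each tag, and the fold is taken over input. The genome mean, which the file headers fix, was 7.18 tags in FLAG 1, 4.42 tags in GFP 2 and 5.02 tags in GFP 3. The rule kept 226 of 875 peaks in FLAG 1 (25.8%, 95% Wilson interval 23.04 to 28.8). In GFP 2 it kept 282 of 847 (33.3%, interval 30.2 to 36.5), and in GFP 3 it kept 323 of 399 (80.95%, interval 76.8 to 84.5). Such intervals reflect counting alone, and neighbouring peaks are not independent. The members were chosen by their pileup and fold, which give the background, so these values describe them below and are not tested.

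Most members lay far above the limit. Median backgrounds were 8.22 (FLAG 1), 8.14 (GFP 2) and 8.17 (GFP 3) times the genome mean, and the highest were 9.75, 11.5 and 11.2 times in the same order. The input was limited to 1 tag per position and sampled down to each IP. The part of this in how alike the medians were was not tested. Between 7 and 10 times the mean there were 189, 205 and 246 peaks of the 3 libraries. Between 3 and 5 times there were 10, 17 and 11. Few peaks thus lay near the limit on either side, with 16, 14 and 5 between 2 and 3 times. Just above the limit, the first 3 members of FLAG 1 had 3.07, 3.20 and 3.20 times the mean. Those of GFP 2 had 3.17, 3.17 and 3.39 times, and those of GFP 3 had 3.19, 3.39 and 3.59 times. Just below it, the nearest peaks of FLAG 1 had 2.79, 2.79 and 2.93 times the mean. For GFP 2 the values were 2.49, 2.49 and 2.71, and for GFP 3 they were 2.59, 2.59 and 2.79.

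The recovered background was a whole number of tags, to within 0.01, for 689 of the 831 members (82.9%). A whole number is what the sampled input gives at a single base, while a mean over the caller's wider windows of 1000 and 10000 bp, which the file headers name, is seldom whole. Among low-background peaks, those with a whole-number background were 25.3% of FLAG 1, 31.7% of GFP 2 and 26.3% of GFP 3, and a further 47.0%, 42.7% and 48.7% had the genome mean itself.

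The IP pileups of most FLAG 1 members lay near the most that the library could hold, those of GFP 3 less so and those of GFP 2 least. With 1 tag kept per position, the highest possible pileup is 2 tags for each base of the fragment length, or 106 in FLAG 1, 116 in GFP 2 and 96 in GFP 3. The median pileup of members was 100 in FLAG 1 (94.3% of that ceiling), 86 in GFP 2 (74.1%) and 84 in GFP 3 (87.5%). Low-background peaks had medians of 28, 21 and 25. At 90% of the ceiling or more stood 160 members of FLAG 1 (70.8%), 32 of GFP 2 (11.3%) and 127 of GFP 3 (39.3%), against 2, 6 and 3 low-background peaks. The input was held to 1 tag per position as well. It was sampled from 20457188 tags down to the size of each IP, 12186235 in FLAG 1, 6858855 in GFP 2 and 9404288 in GFP 3. The part of the ceiling and of this sampling in the folds below was not tested.

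Folds over input were lowest in FLAG 1, and their range was widest in GFP 2. FLAG 1 members had a median fold of 1.66, with a range of 1.49 to 2.91. GFP 2 members had a median of 2.42 (range 1.60 to 5.53) and GFP 3 members one of 2.02 (range 1.59 to 3.50). Above a fold of 2, the limit in the design text, there were 17 members in FLAG 1 (7.52%), where 76.1% of the whole list passed. In GFP 2 there were 234 (82.98%) against 94.3% of its list, and in GFP 3 there were 165 (51.1%) against 60.4%. Since the rule used the same contrast, nothing is read from these shares. Ranked within its own list, the median member stood at percentile 13.0 of fold in FLAG 1, at 17.2 in GFP 2 and at 40.6 in GFP 3. Where members hold mostly the lowest folds of a list, this percentile follows from their share of it. That share was 25.8%, 33.3% and 80.95% in the same order, so the percentiles do not compare the libraries.

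**Figure D1:**
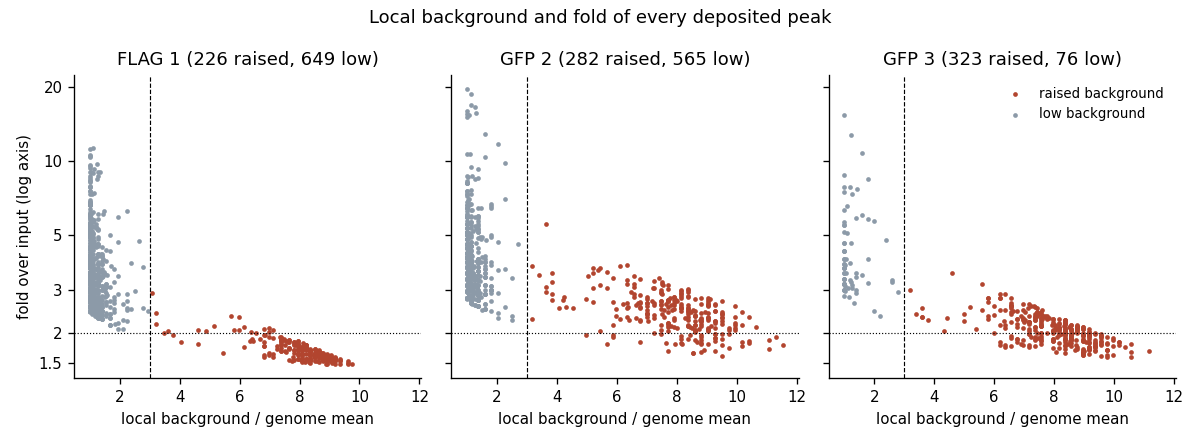
Fold over input (log axis) against local background in multiples of the genome mean, with 1 point for each deposited peak and 1 panel for each library. The dashed line is the limit of 3 times the mean and the dotted line a fold of 2. Raised-background peaks form a cloud around 8 times the mean, below a fold of 2 for most of FLAG 1 and on both sides of it in GFP 2 and GFP 3.

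The widths of members were those of narrow peaks. FLAG 1 members had a median width of 106.5 bp (quartiles 74.3 and 160.5). The median of GFP 2 members was 129 bp (77 and 224) and that of GFP 3 members 108 bp (70 and 171). For low-background peaks the medians were 110, 119 and 136.5 bp in the same order. The longest peaks were members. FLAG 1 had one of 3797 bp, GFP 2 one of 6331 bp and GFP 3 one of 4028 bp, against longest peaks of 1856, 1634 and 979 bp at low background. More than 1 summit was called in 26.5%, 32.6% and 28.2% of members, against 28.4%, 23.2% and 31.6% of low-background peaks.

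Peaks of different libraries often fell in the same place. Of the 363 regions, 140 held members of all 3 libraries (38.6%, interval 33.7 to 43.7), against 60 of 974 low-background regions (6.16%, interval 4.82 to 7.85). These shares cannot be set against each other as a measure of sharing, because GFP 3 had a peak in only 71 of the low-background regions (7.29%), which bounds their share, and in 283 of the raised-background regions (77.96%). Of the regions with a GFP 3 peak, all 3 libraries were present in 49.5% at raised background and in 84.5% at low background. Of those with a FLAG 1 peak, they were present in 80.9% against 9.46%, so the order turned with the list that was taken as the base. A further 76 held GFP 2 and GFP 3, 10 held FLAG 1 and GFP 3, and 4 held FLAG 1 and GFP 2. A single library stood behind 133 regions, FLAG 1 behind 19 and each GFP library behind 57. Of the 173 regions with a FLAG 1 member, 154 (89.02%) also held one of another library. The share was 79.4% of 277 for GFP 2 and 79.9% of 283 for GFP 3. Among low-background regions these shares were 34.5% of 634, 39.9% of 554 and 98.6% of 71. The count of 140 turned on FLAG 1, since without it 216 regions held both remaining libraries. The lists share their input, so the sharing is a description of these libraries, and no test of it was made.

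Regions of all 3 libraries were the broadest and had the highest background. Their median width was 216.5 bp (quartiles 140.75 and 388), against 119 bp for regions of 2 libraries and 70 bp for those of 1. The median of the highest background in a region was 9.16 times the genome mean with 3 libraries, 8.11 with 2 and 7.01 with 1. A region built from more peaks has more chances at a high value and a greater width, so both orders follow in part from how regions were merged. The 19 regions of FLAG 1 alone had a median of 5.99 times.

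**Figure D2:**
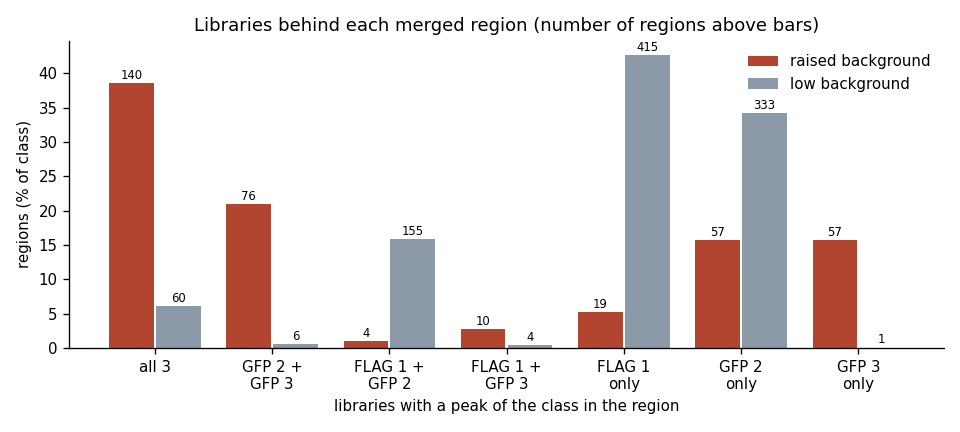
Percent of the merged regions of each background class by the libraries whose peaks they hold, with raised background left and low background right in each pair and the number of regions above each bar. The tallest raised-background bar is that of all 3 libraries (140 regions), and the tallest low-background bar is FLAG 1 alone (415 regions).

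Summits of different libraries lay close together in these regions. The distance to the nearest summit of the other library had a median of 14 bp from FLAG 1 to GFP 2 (278 summits, quartiles 5 and 40.75), against 33 bp in low-background regions (367 summits). From FLAG 1 to GFP 3 it was 14 bp (283 summits), against 43.5 bp (130 summits). From GFP 2 to GFP 3 it was 12 bp (423 summits), against 44.5 bp (134 summits). Distances of at most 10 bp made up 43.9%, 44.9% and 48.9% of the pairs, in that order, against 26.4%, 15.4% and 17.9% at low background. Peak width and the number of summits per region differ between the classes and bear on such distances, and their part was not tested.

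The libraries differed in the background they gave the same region, although the input was 1 library. Each library was taken at its peak of highest fold in the region. The median absolute difference was 0.83 times the genome mean between FLAG 1 and GFP 2 (144 regions), 0.65 between FLAG 1 and GFP 3 (150 regions) and 0.79 between GFP 2 and GFP 3 (216 regions). The correlation of the values over those regions was r = 0.35, r = 0.56 and r = 0.53. Only regions past the limit in both libraries enter, which cuts the range of the values. The fold that chose the peak also holds the background, so r describes only these chosen values. The points share the input, and each list drew its own sample from it and read it at its own summit.

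The regions crowded into a few short stretches. Regions at most 20000 bp apart were chained, and a chain of at least 5 regions is called a crowded stretch. There were 22 crowded stretches, and they held 228 of the 363 regions (62.8%, interval 57.7 to 67.6). Low-background regions also formed 22 such chains, but these held 139 of 974 regions (14.3%, interval 12.2 to 16.6) and at most 9 each, against up to 26. The median gap to the next region on the chromosome was 223 bp, against 49900 bp at low background. Only 45 raised-background regions stood alone, against 417. Neighbouring regions are not independent, and no test of these differences was made. The counts rest on how peaks were merged, since joining members within 500 bp gave 139 regions and 0 crowded stretches. Low-background peaks were not joined in this way.

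The stretches were compact. Their median span was 3632 bp, 17 of the 22 were under 6000 bp, and together they spanned 128 kb. The stretches held 147 of the FLAG 1 members (65.04%), 186 of those of GFP 2 (65.96%) and 223 of those of GFP 3 (69.04%), and these shares were close to each other. Members of all 3 libraries were found in 21 stretches. No low-background peak lay in a stretch or within 5000 bp of one, and the nearest low-background region was 7516 bp away. For the 135 raised-background regions outside the stretches, 11 had a low-background region within 5000 bp. The caller's 10000 bp window can raise the background next to a stretch, and its part in this gap was not tested.

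Neighbouring summits of 1 library in a stretch were a median of 350 bp apart for FLAG 1 (quartiles 205 and 644.5). For GFP 2 the median was 349 bp (243 and 517) and for GFP 3 it was 325 bp (213 and 503). The spacing was irregular within stretches. In the stretch with the most regions, for example, it ran from 155 to 2359 bp in GFP 2 and from 176 to 2386 bp in GFP 3.

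**Figure D3:**
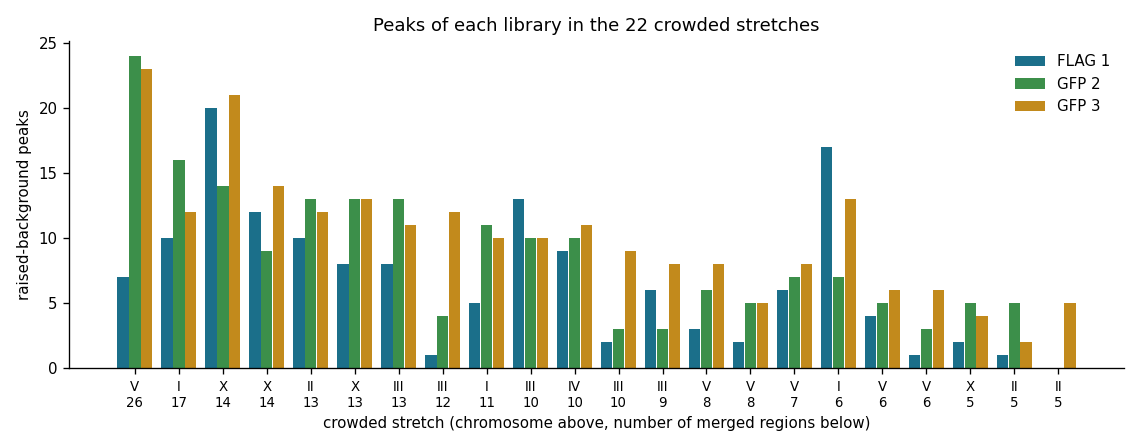
Number of raised-background peaks of each library in the 22 crowded stretches, ordered by their number of merged regions, which stands under the chromosome. GFP 3 had the most peaks in 11 stretches, GFP 2 in 7 and FLAG 1 in 2, and 2 were tied.

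The stretch with the most regions, 26, lay on chromosome V from 17115747 to 17132056. It held 7 peaks of FLAG 1, 24 of GFP 2 and 23 of GFP 3. They covered 4.37% of its length in FLAG 1, 47.9% in GFP 2 and 25.3% in GFP 3. The GFP libraries thus filled much more of it than FLAG 1. The median background was 7.79, 8.57 and 8.57 times the mean. As the genome means were 7.18, 4.42 and 5.02 tags, it was highest in tags in FLAG 1. That order follows the genome means and is not particular to this stretch. The part of the background in tags in the share covered was not tested. Median folds were 1.57, 2.08 and 1.84, and the 5 regions of all 3 libraries were a minority. It was 1 of 6 stretches on chromosome V.

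The second stretch, on chromosome I from 10946016 to 10952983, held 17 regions and 10, 16 and 12 peaks of FLAG 1, GFP 2 and GFP 3. Its median folds were 1.60, 2.59 and 2.00. A stretch on X from 109247 to 114239 held 14 regions, 9 of them with all 3 libraries, and 20, 14 and 21 peaks. There the peaks of GFP 2 covered 76.6% of the span, those of GFP 3 57.8% and those of FLAG 1 45.4%, so FLAG 1 had more but shorter peaks than GFP 2. A second stretch of 14 regions on X, from 11785717 to 11789421, had 12, 9 and 14 peaks.

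Of the 3 stretches with 13 regions, that on II from 8287614 to 8292536 had 10, 13 and 12 peaks, and 9 regions of all 3 libraries. That on X from 15807627 to 15811105 had 8, 13 and 13 peaks. In it the spacings of GFP 2 and GFP 3 had medians of 261 and 241 bp, and the 2 libraries had peaks at nearly the same places, as its map shows. That on III from 7425903 to 7447996 had 8, 13 and 11 peaks. Its span of 22094 bp was the longest of the 22, and 1 gap of 18589 bp between GFP 2 summits made up most of it.

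Stretches differed in how far FLAG 1 took part. On III from 1017462 to 1020595, with 12 regions, FLAG 1 had 1 peak against 4 in GFP 2 and 12 in GFP 3. On III from 1299749 to 1302945, with 10 regions, FLAG 1 had 13 peaks and each GFP library had 10, and 9 of the regions held all 3. On I from 4544914 to 4548472 there were 11 regions and 5, 11 and 10 peaks. The single stretch on IV, from 11070936 to 11075401, had 10 regions and 9, 10 and 11 peaks. One of the 3 stretches with 5 regions, on II from 4641295 to 4644256, was made of 5 peaks of GFP 3 alone. Between stretches, the share of FLAG 1 thus ranged from no peak to the most of the 3 libraries, with 1 library behind each count.

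**Figure D4:**
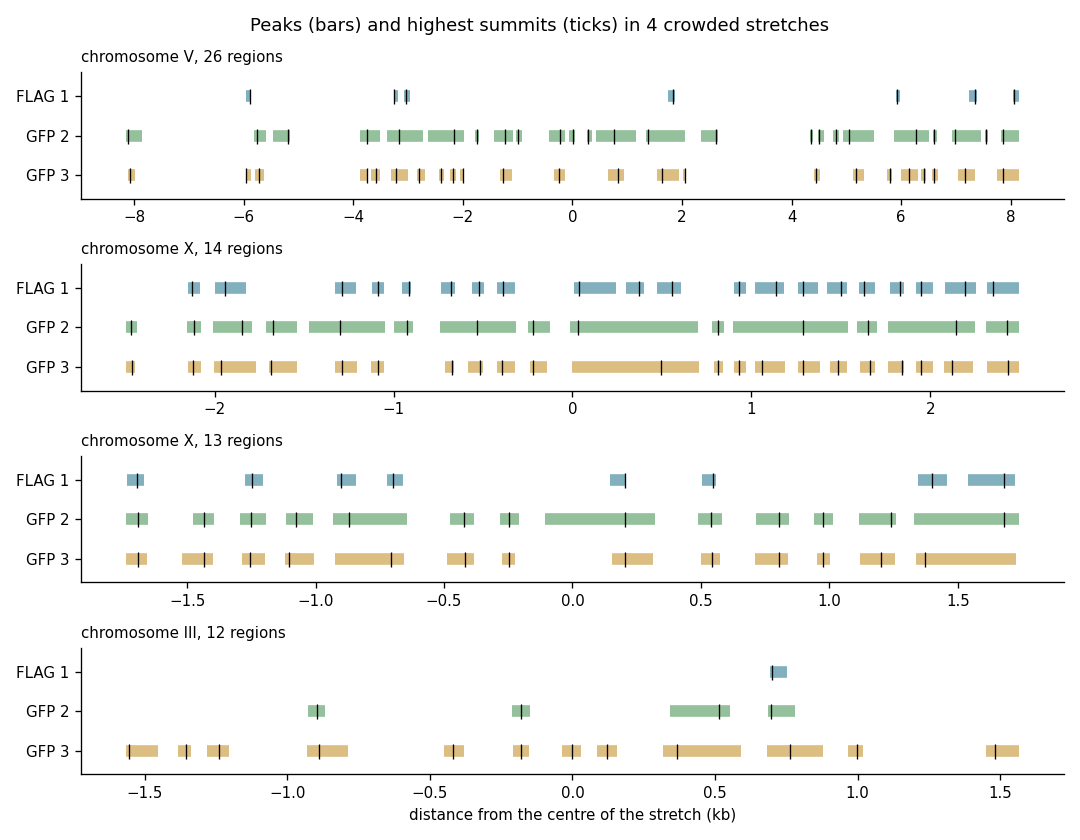
Peaks (bars) and their highest summits (ticks) in 4 crowded stretches, by library, against the distance in kb from the centre of the stretch. FLAG 1 has 7 peaks in the stretch of 26 regions on V, 20 in that of 14 on X, 8 in that of 13 on X and 1 in that of 12 on III. In the X stretch of 13 regions each of the 13 GFP 3 bars stands under a GFP 2 bar.

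The widest regions lay in a stretch at the right end of the chromosome I peaks, from 15060313 to 15072214. Its 6 regions covered 91.04% of that span, and they measured up to 6331, 2499 and 1231 bp. It held 17 peaks of FLAG 1, 7 of GFP 2 and 13 of GFP 3, which covered 73.3%, 90.5% and 66.7% of the span. The 6331 bp region was a single GFP 2 peak in its whole length, with 35 summits, the most in any peak of that list. The share covered was the highest of the 22 stretches, of which the next, on X from 109247, was covered to 77.2%. Median backgrounds were 8.74, 9.05 and 8.97 times the mean.

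On chromosomes I and V most regions lay in the outer parts of the chromosome, and on the other 4 their share there was near or under what an even spread gives. The span between the first and last deposited peak of each chromosome was cut into 3 equal parts. The outer parts, all but the middle one, make up 66.7% of the span by construction. They held 267 of the 363 raised-background regions (73.6%, interval 68.8 to 77.8), against 576 of 974 at low background (59.1%, interval 56.02 to 62.2). The share was 94% against 62.1% on chromosome I and 86.7% against 53.6% on V. It was 62.5% against 51.3% on II, 61.3% against 57.2% on III and 60.4% against 59.3% on IV, so on these chromosomes both classes were under 66.7%. On X it was 70.7% against 71.2%. Of the 22 stretches, 16 lay in the outer parts. Since regions of 1 stretch share their place, the number of separate places behind these shares is small, and no test was made.

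Every chromosome held such regions, 83 on V, 75 on X, 62 on III, 53 on IV, 50 on I and 40 on II. Crowding was highest on III, where 54 of 62 regions (87.1%) lay in 5 stretches, and lowest on IV, where 10 of 53 (18.9%) did. Of the regions on IV, 29 of 53 (54.7%) held all 3 libraries. On V the share in all 3 was 22.9% (19 of 83) and on X it was 49.3% (37 of 75). Low-background regions numbered 168 on V, 163 on X, 159 on III, 189 on IV, 145 on I and 150 on II.

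**Figure D5:**
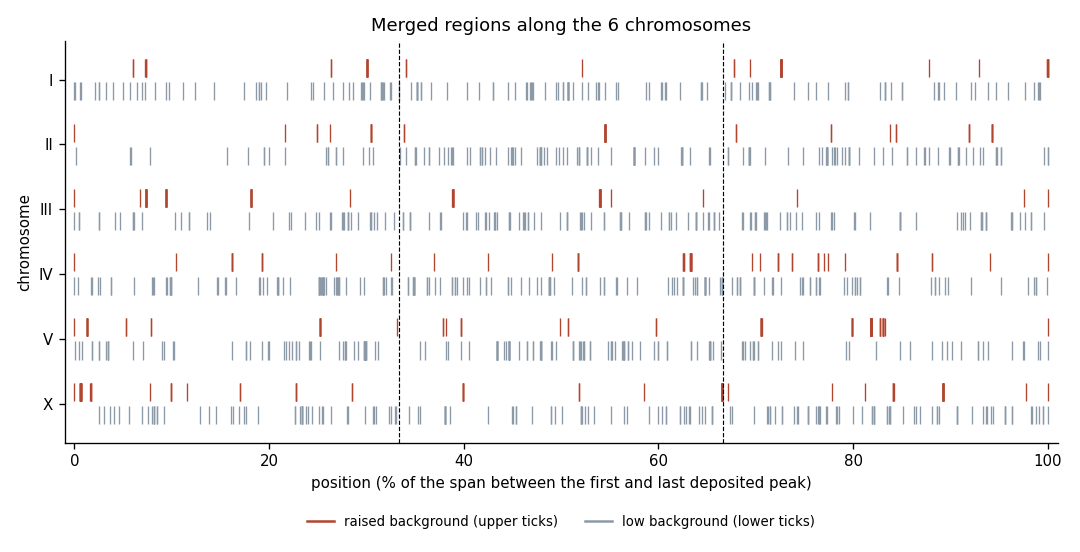
Merged regions along the 6 chromosomes, each tick 1 region, as percent of the span between the first and last deposited peak. For each chromosome the upper ticks are raised-background and the lower ticks low-background regions, and dashed lines mark the 3 equal parts. Many raised-background ticks lie on top of each other, as in the stretches at 81.8% of chromosome V and 72.6% of chromosome I, and ticks stand at both ends of III, IV, V and X.

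Peaks at the very ends of chromosomes were singled out after their positions were seen. Within the first 300 bp of a chromosome 12 deposited peaks began, on II, III, IV, V and X, and 8 of them were members. On X the 3 libraries had summits at 207 (FLAG 1), 212 (GFP 2) and 210 (GFP 3), with backgrounds of 3.20, 3.17 and 3.59 times the mean and folds of 2.17, 3.73 and 2.32. On III the summits were at 82, 73 and 80, and on IV at 105, 83 and 102. On V there were peaks of GFP 2 and GFP 3, with summits at 87 and 75, and on II 1 of GFP 3 at 329.

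Within 300 bp of the last position covered by peaks on each chromosome, 13 peaks ended, and 9 were members. This window starts from the last peak, so every chromosome has a peak in it by construction, and it need not reach the chromosome end. All 5 GFP 2 peaks among them were members. GFP 3 had 3 members in 4 such peaks, while FLAG 1 had 1 in 4. The last peaks on I and II differed from the rest. On I the FLAG 1 and GFP 2 peaks were members of the stretch described above, with pileups of 98 and 73, backgrounds of 8.36 and 9.05 times the mean and folds of 1.62 and 1.80. On II the only such peak, of FLAG 1, had a background of 1.21 times and a fold of 4.56, and whether it lies at the chromosome end was not tested. Without these 3, the pileups of the 22 end peaks ran from 42 to 68 with a median of 48, under the ceilings given above, and 21 had a fold above 2. Of all 25 end peaks, 18 had a background of 2 to 4 times the mean, on either side of the limit that defines the class, 6 had more and 1 had less. At the left end of III the background was 2.93 times the mean in FLAG 1, 3.85 in GFP 2 and 2.79 in GFP 3, so that only the GFP 2 peak was a member. Of the members at most 4 times the mean, 5 of 10 in GFP 2 and 5 of 6 in GFP 3 were end peaks, and 1 of 6 in FLAG 1. Distances to the true chromosome ends were not computed, since chromosome lengths of the build were not used.

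The 10 regions with the highest background included 7 in crowded stretches, where 228 of all 363 regions lay (62.8%). The first was on X from 111004 to 111425, where the peaks of highest fold had 11.5 times the mean in GFP 2, 8.77 in GFP 3 and 7.56 in FLAG 1. Pileups there were 92, 89 and 101, and folds 1.79, 2.00 and 1.85. The second was on IV from 9048165 to 9048662, with 11.3 times the mean in the first of 2 GFP 2 peaks, where the fold was 1.92. The third was on V from 16708425 to 16708548, with 11.2 times in GFP 3, where the fold was 1.68. The fourth, on X from 293697 to 294780, was also among the widest regions, at 1084 bp. The remaining regions were on III from 7447213 to 7447408 and from 7445126 to 7445352, on V from 266361 to 266461 and from 17120518 to 17121209, on I from 10946504 to 10946841 and on IV from 13360758 to 13361140. In these 10 the highest folds were 1.85 in FLAG 1, 2.69 in GFP 2 and 2.78 in GFP 3. Backgrounds were read from a sample of the input at single summits, and the part of that sampling in this ranking was not tested.

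Among regions of all 3 libraries, the highest by mean percentile of fold within the lists was on X from 5056263 to 5056459. Its folds were 2.02 in FLAG 1, 3.40 in GFP 2 and 2.88 in GFP 3, its pileups 102, 101 and 94, and its summits at 5056304, 5056314 and 5056310. The second was the left end of X, described above. The third, on III from 1302878 to 1302945, had folds of 1.96, 3.61 and 2.31 and summits at 1302914, 1302912 and 1302911. The fourth, on IV from 13549423 to 13549500, had folds of 2.33, 3.03 and 2.76 and summits at 13549469, 13549466 and 13549468. Summits in these places agreed to within 10 bp.

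The next in rank were on III from 931284 to 931670, on I from 10462696 to 10462779, on III from 1299749 to 1300077 and from 7594731 to 7595066, and on X from 110271 to 110693 and from 11787103 to 11787426. Over the 10, folds ran from 1.64 to 2.33 in FLAG 1, from 2.78 to 3.79 in GFP 2 and from 2.26 to 2.88 in GFP 3. Of the 10, 4 lay in crowded stretches, against 96 of all 140 regions with 3 libraries (68.6%). Even the first of the 10 stood at a mean percentile of 55.2. Apart from the left end of X, the FLAG 1 pileups of these regions were 97 to 104, close to the ceiling of 106.

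In 6 places a member overlapped a low-background peak of another library. One of them, on IV, held the highest fold of any member. GFP 2 had a fold of 5.53 there, over a background of 3.62 times the mean, from 4705064 to 4705568. The overlapping peaks of FLAG 1 and GFP 3 had folds of 3.71 and 5.73 and backgrounds of 2.79 and 1.99 times, under the limit. Another, on II from 3290692 to 3290794, had backgrounds of 3.20 times in FLAG 1, 2.71 in GFP 2 and 3.19 in GFP 3, with folds of 2.42, 4.62 and 3.0. The other 4 were chromosome ends, of III and IV on the left and V and X on the right. At these places the class of a peak depended on the library, while in the rest of the 363 regions no low-background peak overlapped a member.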

How the data were processed

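The files were peak lists, 1 for each of 3 IP libraries. MACS 2.1.0.20140616 was run by the authors on each library alone against 1 input library, per the file headers, with a q-value limit of 0.05, a genome size of 9e7, summit splitting, 1 tag kept per position and the larger library sampled down to the smaller. The IP libraries kept 6858855 to 12186235 tags and the input 20457188, per the file headers. The caller's fragment lengths of 53 bp (FLAG 1), 58 bp (GFP 2) and 48 bp (GFP 3) are close to the tag size of 49 bp, and pileups, folds and widths rest on them. Per the submitters' processing notes, positions are on ce10. The aligner is not named in the headers or labels used here. They are 1-based.

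The deposited pileup is a signal in tags, the deposited fold is a ratio, pileup plus 1 over background plus 1, and the 2 deposited significance columns hold −log10 p-values and −log10 q-values. These values are the authors'. Members were chosen and folds ranked within a list, and values of different lists were set side by side only as a description.

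One row was kept per peak, with the summit of highest pileup. Overlap meant at least 1 bp. The genome mean was tags after filtering times fragment length over the genome size. Regions named are the 10 largest stretches, the largest of each chromosome, the 10 regions of highest background, the 10 of all 3 libraries with the highest mean percentile of fold, and the 3 peaks on each side of the limit, and the widest regions and chromosome ends were named after their values were seen. The rule for members and the lists were chosen with earlier results of these data known. No test was made, as each list is 1 library and peaks are not replicates. Merging and chaining recovered planted stretches in simulated peaks. Those were almost evenly spaced and shared by all 3 libraries, unlike the data, so their recovery checks the code alone. Alternatives changed the limit, summit, significance, fold, merging distance, gap, stretch size and libraries. The planned reading of sequence was not run, for want of a genome of the build here. Python 3.11.15, numpy 2.4.6, pandas 2.3.3 and matplotlib 3.10.9 were used.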

Additional observations from a re-analysis of the deposited data

How the results depend on the processing

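Of 88 alternative values, 73 stayed within 1.5 times the reported count, or within the interval of a share or the spread of widths between libraries. At a −log10 q of at least 5 the members fell to 32 in FLAG 1, against 226, and to 167 in GFP 3, against 323, regions of all 3 libraries to 16, against 140, and the median width in GFP 2 was 143 bp, against 129. With a fold above 2 only 8 regions held all 3 libraries. Without 1 library, the regions common to the remaining 2 numbered 145 (without GFP 3) to 216 (without FLAG 1). Members of FLAG 1 with a fold above 2 numbered 33 with a limit of 2 times the genome mean and 11 with 5 times, against 17. Joining peaks within 500 bp gave 139 regions, against 363, with 60 in all 3 libraries. It left 0 crowded stretches and a share of 0, because each stretch then becomes a few wide regions, 17 of them over 2000 bp. Counting chains of at least 3 regions gave 37 stretches and 77.1% of regions, against 22 and 62.8%. With each span cut in 5 equal parts, the first and last part, which are 40% of the span by construction, held 48.2% of regions, against 73.6% in 66.7% of the span with 3 parts. No paired analysis was possible because no result comes from a test and the 2 antibodies share no replicate number. Reads and the sampled input were not at hand, so pileups near the ceiling limit what a fold can show.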
